A study of Mus musculus with 14 samples.

Results

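Primordial germ cells (PGCs), from which eggs and sperm descend, were compared with embryonic stem cells (ESC), the pluripotent lines of the inner cell mass, on single-colour bead arrays of mouse RNA. The comparison took the 2 arrays titled PGC11.5, from germ cells of embryos at 11.5 days post coitum, against the 2 arrays titled ESCm and the 2 titled ESCf, with both ESC lines weighted equally, and so used 6 of the 14 arrays of the study. All 6 samples are of C57BL background and are labelled as not cultured in hypoxia, which was the treatment of other groups. The titles of the ESC arrays name embryonic stem cells, whereas their cell type entry gives embryonic germ cells, and here the title decides the group. Epiblast stem cells (EpiSC), pluripotent lines of the later epiblast with 1 array each for EpiT9 and EpiE3, served as a second pluripotent cell beside ESC. How the PGCs were isolated, how many embryos were pooled and the culture medium of the ESC were not given in the sources used here. The labels do not say whether replicates come from separate cultures or litters, and the p-values therefore reflect the spread among these arrays alone, which may be technical. In bulk RNA such as this, fewer cells of a type and less RNA per cell cannot be told apart.

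Germ cells are set aside from the early epiblast by BMP signals and keep part of the pluripotency network, with Oct4 (Pou5f1) as its best known member. On the way to the gonad they lose most of their DNA methylation, and the removal of methyl marks from promoters is a known step in switching on germline genes such as Dazl and Ddx4. Cultured ESC depend on LIF and STAT3 signalling, divide quickly and are known for high glycolysis.

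Each value below is the background-corrected, quantile-normalized log2 signal of 1 probe, so 1 unit is a doubling, and levels of different genes are not compared, because probes differ in brightness. ESC values are listed in the order ESCm replicates 1 and 2, then ESCf replicates 1 and 2. A probe counts as detected on an array when its detection p-value is under 0.01. A gene was called on both arrays when its Benjamini-Hochberg adjusted p from limma was under 0.05, both PGC11.5 arrays lay on the same side of all 4 ESC arrays, and the probe was detected on every array of the brighter group. "Rose" and "fell" refer to PGC11.5 relative to ESC and are kept for genes called in this way. By this rule 27.0% of all genes tested rose and 27.2% fell, and the counts of each list are to be read beside these shares. Where a log2 difference is printed for a probe that one group did not detect, it is the measured difference and not a bound. A fold is likewise the measured one where only some arrays of the dimmer group detected the probe, and it then takes in a signal not above background. Among the falls with detection on 1 PGC11.5 array are Prps1, Syce2, Krt8, Cldn6, Stat3, Socs3, Cdx1, Pcna, Cct5 and Cox7b.

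The 2 PGC11.5 arrays differed from each other far more than the ESC replicates did. Over the 9054 genes tested, their correlation was 0.952 and 1236 genes lay at least 2-fold apart, whereas the ESCm pair correlated at 0.996 and the ESCf pair at 0.994, with 2 such genes in each pair. Of the 1236, 565 were higher on PGC11.5 replicate 1 and 671 on replicate 2. Between 29.77% and 34.17% of probes were detected on the PGC11.5 arrays and between 38.67% and 41.83% on the ESC arrays. The PGC11.5 arrays were dimmer, with median raw signals of 78.01 and 83.87, against 125.02 to 130.64 on the ESC arrays. The lowest normalized signal of a detected probe was 6.075 and 5.634 on PGC11.5 and 5.047 to 5.259 on ESC. A probe not detected in PGC11.5 is therefore not shown to be absent. The number of arrays limits the precision, and the spread used by the test is shared with the other replicated groups, which vary less than the PGC11.5 pair.

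RNA of blood was present on both PGC11.5 arrays and was much higher on replicate 1. The embryonic beta globin Hbb-y had 14.37 and 10.09 in PGC11.5, against 4.38, 4.38, 4.32 and 4.37 in ESC. The alpha globin Hba-a1 had 14.51 and 9.83 in PGC11.5, against 4.59, 4.27, 4.49 and 4.55 in ESC. Neither gene was detected in ESC. Over the 8 measured erythroid and globin markers, the median difference from ESC was 6.87 on PGC11.5 replicate 1 and 1.10 on replicate 2. The anion exchanger Slc4a1 of red cells was 10.86 on replicate 1 and 4.73 on replicate 2, and only replicate 1 detected it. The erythroid transcription factor Klf1 was detected on neither PGC11.5 array. Of 16 endothelium markers, 2 rose, with medians of 1.45 on replicate 1 and -0.02 on replicate 2, and without replicate 2 the count was 8. The vessel protein Vwf was 7.40 on replicate 1 and 4.29 on replicate 2. Of 22 fibroblast and collagen markers, 7 fell and none rose, with medians of 0.02 and -1.31, and the number lower was 15 without replicate 1, while 6 were higher without replicate 2. Collagen Col1a1 was 8.17 on replicate 1 and 4.45 on replicate 2, and smooth muscle actin Acta2 was 11.55 on replicate 1 and 7.01 on replicate 2. The median level of the fibroblast list was 6.13 and 4.95 on the PGC11.5 arrays and 6.61 to 6.89 on the ESC arrays. Markers of gonadal somatic cells were low, with median levels of 5.29 and 4.66 in PGC11.5 and of 4.95 to 5.20 in ESC. Of 26 listed, 10 were measured, and of these 2 rose and 1 fell, beside 27.0% and 27.2% of all genes. The 2 rises, Cbx2 and Nr2f1, were the only members that both PGC11.5 arrays detected, and Wt1, Sox9 and Amhr2 were detected on neither. The coelomic and renal factor Lhx1 was an exception among 9 mesonephros markers, at 8.56 and 8.48 in PGC11.5 and not detected in ESC. Of 6 macrophage markers, both PGC11.5 arrays detected 1, Laptm5. The part of these cells in the differences below was not tested, and genes that stand apart between the PGC11.5 arrays are given with each array's value.

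**Figure D1:**
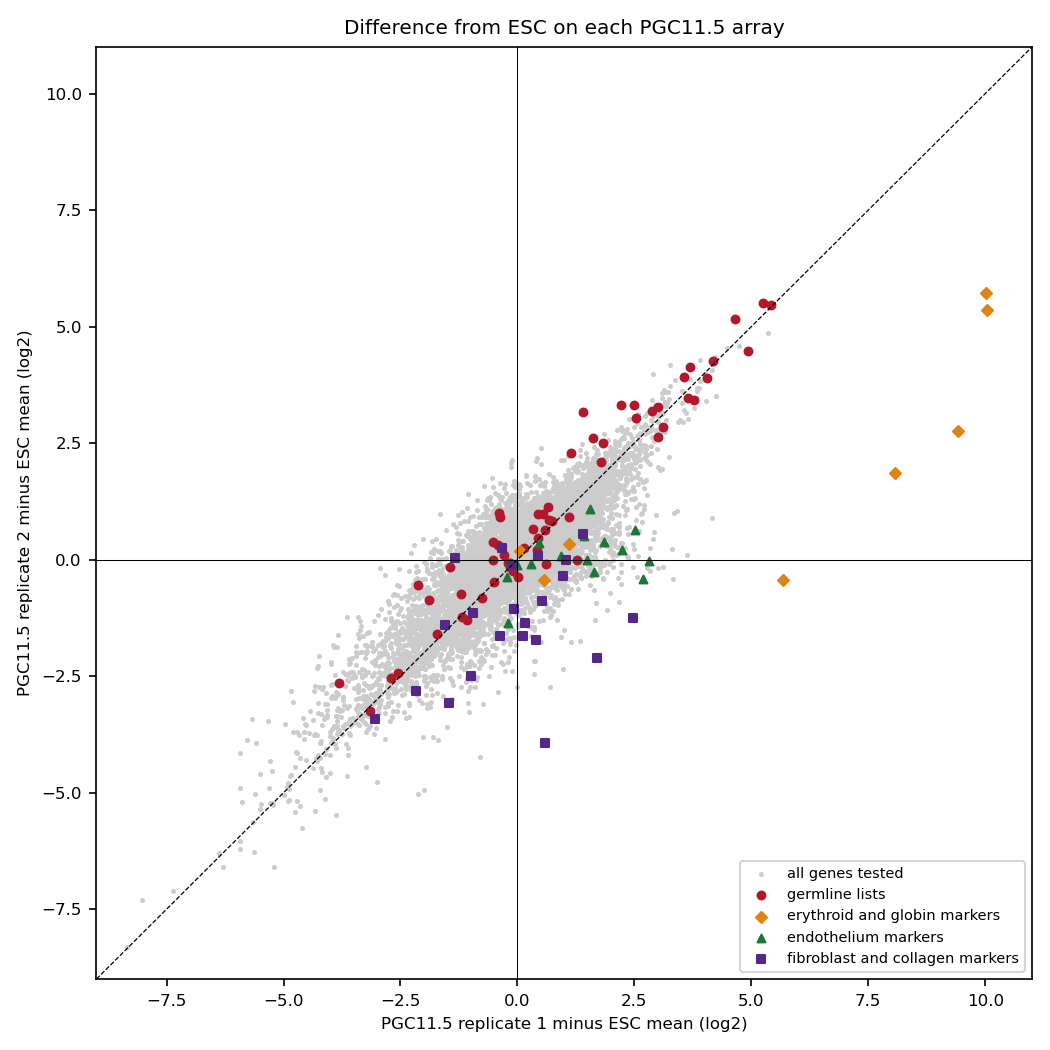
Each point is a gene, with its log2 difference from the ESC mean on PGC11.5 replicate 1 on the horizontal axis and on replicate 2 on the vertical axis, and the dashed line marks equal differences. Most germline genes (red circles) lie near the line, whereas erythroid and globin (orange diamonds), endothelium (green triangles) and fibroblast (purple squares) markers lie mostly below it, higher on replicate 1.

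Defining markers went with the labels. Of 9 measured PGC markers, 7 rose, and all 9 were detected on both PGC11.5 arrays. The chosen probe of 1 more, Pou5f1, which is also an ESC marker, was called lower, but its probes disagreed, as given below. Of 10 ESC markers, 8 were called lower, Pou5f1 among them, and 2, Utf1 and Zfp42, rose. Blocked on line as described below, 5 PGC markers rose and none fell, and of the ESC markers 6 fell and none rose. Kit, a receptor by which PGCs are commonly recognised, has no probe listed, and Prdm1, a founder of the germ cell fate, was detected on too few arrays to be tested. The X-linked Xist was detected on none of the 6 arrays. The Y-linked Eif2s3y had 6.88 and 8.02 in PGC11.5, against 9.02 and 8.94 in ESCm and 4.41 and 4.34 in ESCf, where it was not detected.

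Germ cells and ESC differed over much of the measured transcriptome. Of the 9054 genes, 2447 (27.0%) rose and 2459 (27.2%) fell on both arrays, of which 1351 and 1686 changed at least 2-fold. By the adjusted p alone, 3067 genes (33.9%) were higher and 3131 (34.6%) lower. The balance between rises and falls depends on the scaling of the arrays: rises were 49.9% of the calls on both arrays and 49.5% of those by adjusted p alone, against 59.9% and 73.5% when arrays were scaled to a common median of detected probes in place of quantile normalization, which moved the median difference of all genes to 0.73. Differences below are on the quantile-normalized scale, where that median is -0.015, and directions that turn under median scaling are marked. Of the genes described below as changed, Ddx4, Igf2, Bcl3, Smad1, Pmaip1, Lama1 and Lamb1 kept their direction under median scaling but were not called. When the ESC line entered the fit as a random block, 1625 genes rose and 1728 fell. Probes of the same gene could disagree: of 1098 genes with at least 2 called probes, 267 (24.3%) had probes called in opposite directions.

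**Figure D2:**
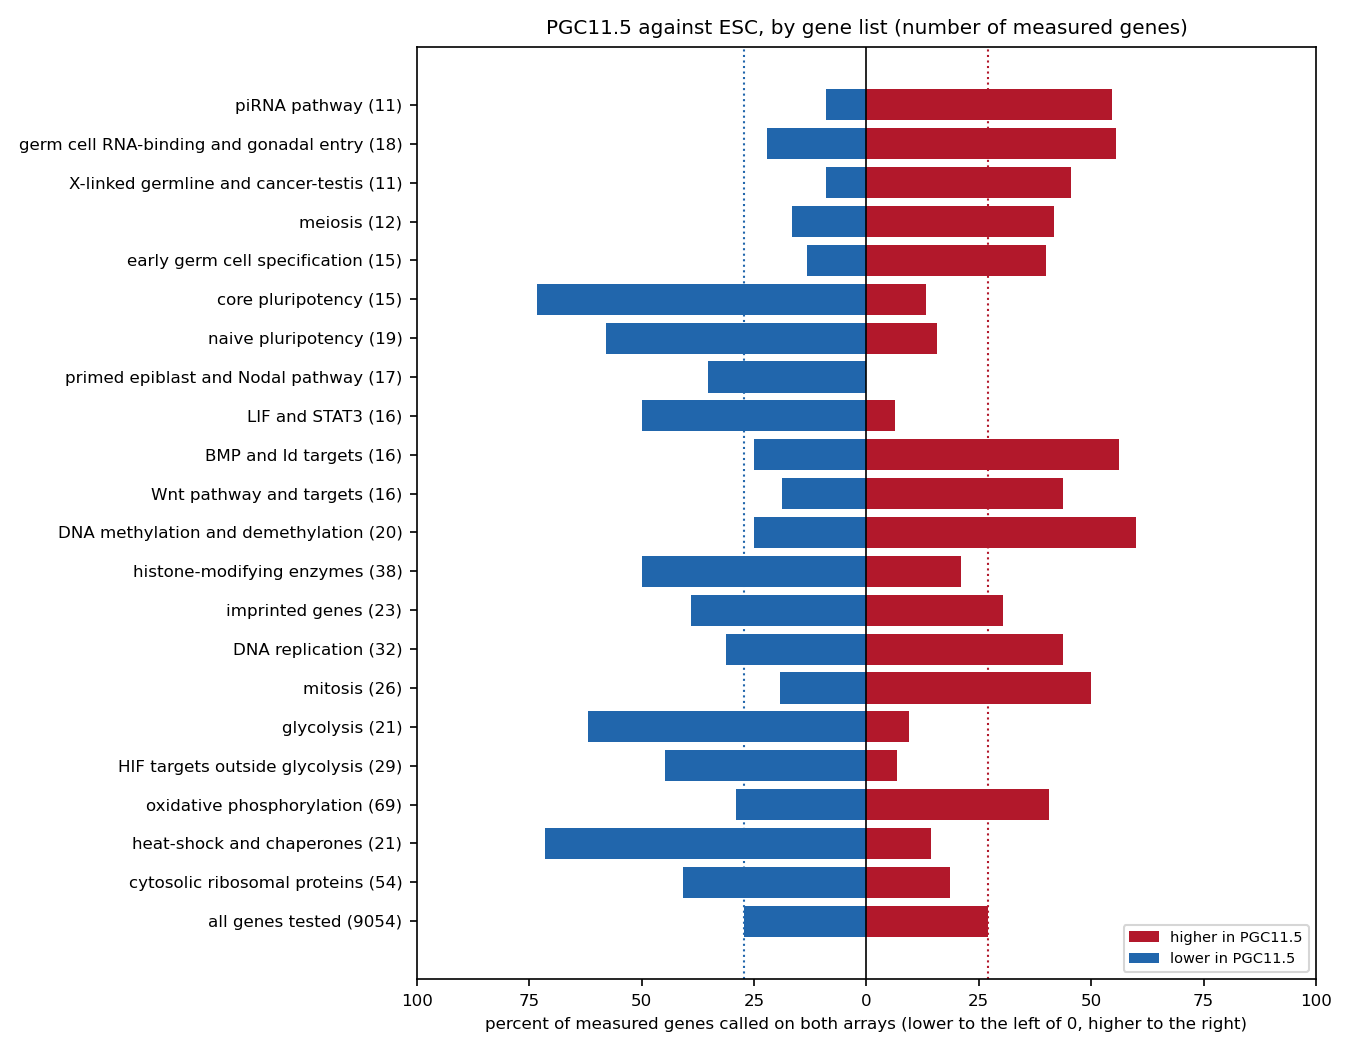
Bars give, for each gene list with its number of measured genes, the percent called higher (red, right) and lower (blue, left) in PGC11.5 than in ESC on both arrays, and dotted lines mark the percent for all genes tested, 27.0% and 27.2%. Germline lists extend to the right and the pluripotency, LIF, glycolysis and heat-shock lists to the left.

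Setting the globins aside, the largest rises on both arrays belonged to germline genes and a few genes of other roles. The X-linked homeobox gene Rhox9 had 12.79 and 12.83 in PGC11.5, against 6.62, 6.53, 8.25 and 8.06 in ESC. Dnd1, an RNA-binding protein that germ cells need to survive, had 11.71 and 11.97 in PGC11.5, against 6.84, 6.93, 5.80 and 6.28 in ESC. Dazl, a translational regulator that licenses germ cells for gametogenesis, had 10.89 and 11.40 in PGC11.5, against 5.12, 5.44, 7.33 and 7.06 in ESC. The rises of these genes were 43.7-fold, 41.6-fold and 30-fold. The vesicle adaptor subunit Ap3b2 had 10.88 and 10.41 in PGC11.5, against 5.19, 5.79, 5.74 and 5.43 in ESC, a 34.5-fold rise. The Notch target Hey1 rose 25.4-fold, the lipase Liph 19.6-fold and the ubiquitin ligase Rnf182 at least 14.7-fold, with both replicates of PGC11.5 within 0.16 of each other on the log2 scale.

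The largest falls included a regulator of DNA methylation, metabolic enzymes and stress genes. Dnmt3l, the cofactor of the de novo DNA methyltransferases, had 4.36 and 4.40 in PGC11.5, against 12.86, 12.75, 12.61 and 12.57 in ESC. It was not detected in PGC11.5 and bright on all ESC arrays, and the fall was at least 115-fold (adjusted p = 4.82e-12). Uridine phosphorylase Upp1 had 4.62 and 5.34 in PGC11.5, against 12.66, 12.83, 12.36 and 12.70 in ESC. The transcription factor Klf9 had 4.37 and 4.64 in PGC11.5, against 11.70, 11.61, 11.79 and 11.88 in ESC. Atf4, the effector of the integrated stress response, had 4.84 and 4.55 in PGC11.5, against 10.50, 10.45, 10.99 and 11.12 in ESC. None of the 3 was detected in PGC11.5, so that their falls of at least 110.2-fold, at least 59.3-fold and at least 30.1-fold are lower bounds. The nucleotide enzyme Prps1 fell 59.6-fold, with 6.28 and 4.90 in PGC11.5, against 11.39 to 11.60 in ESC. Among the PGC11.5 arrays only replicate 1 detected Prps1, so the fold takes in a signal not above background. The Prps1 difference was -6.59 without replicate 1 and -5.21 without replicate 2, against -5.90 ± 0.28 with both. The small heat-shock protein Hspb1, the fatty acid carrier Fabp3, the galectin Lgals3, the junction protein Jam2 and the growth factor binder Igfbp2 fell at least 56-fold, at least 44.1-fold, at least 34.7-fold, at least 20.6-fold and at least 24.7-fold, all without detection of these probes in PGC11.5. A second Igfbp2 probe was detected on both PGC11.5 arrays and differed by -3.96, and of 3 other Jam2 probes 2 were also called lower and 1, detected on 1 PGC11.5 array, differed by -0.41 and was not called.

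Over 5 lists of germline genes, which share some members, 26 of 59 measured members rose and 9 fell, beside 27.0% and 27.2% of all genes. Early specification genes gave 6 rises and 2 falls of 15, and germ cell RNA-binding and gonadal entry genes 10 and 4 of 18. piRNA pathway genes gave 6 and 1 of 11, meiosis genes 5 and 2 of 12, and X-linked germline genes 5 and 1 of 11. In this order the lists named 20, 30, 23, 30 and 29 genes, and the rest were not measured. The filter, detection on at least 2 arrays of the study, can be met by the PGC11.5 arrays alone. For a member seen only there, a rise was nearly fixed by the filter. Tex13b, Mov10l1 and Spo11, among the rises, were detected on no ESC array. The shares of rises are therefore no test of enrichment. The median differences of these lists were 0.50, 2.03, 2.77, 0.07 and 0.78, beside -0.015 for all genes. Without PGC11.5 replicate 1, the rises among early specification genes numbered 10 in place of 6.

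Among specification genes, Dppa3, a protector of the maternal genome that marks early germ cells, rose on both arrays. Dppa3 had 12.54 and 12.91 in PGC11.5, against 9.43, 9.27, 8.61 and 8.65 in ESC, a 13.3-fold rise (log2 difference 3.74 ± 0.12, SE, adjusted p = 4.08e-09). Nanos3, an RNA-binding protein that keeps PGCs alive, had 8.40 and 8.04 in PGC11.5, against 6.43, 6.07, 4.59 and 4.53 in ESC. Only ESCm detected it among the ESC lines, and the rise was 7.04-fold over the ESC mean. Tfap2c, a transcription factor of PGC specification, had 11.34 and 11.37 in PGC11.5, against 10.88, 10.82, 10.93 and 10.97 in ESC, a narrow rise of 1.37-fold. The membrane protein Ifitm3 (Fragilis) had 12.35 and 12.15 in PGC11.5, against 11.13, 11.18, 11.35 and 11.29 in ESC. Its rise was 2.02-fold, whereas the related Ifitm1 fell 2.60-fold, with 6.97 and 8.01 in PGC11.5, against 8.77 to 8.90 in ESC. The adjusted p under a random block for line was 0.415 for Tfap2c and 0.165 for Ifitm3. Tissue-nonspecific alkaline phosphatase Alpl, the classical stain of PGCs, was not called, with 9.85 and 9.15 in PGC11.5, against 9.11 to 9.38 in ESC. Prdm14, a repressor needed in both PGCs and naive ESC, was also not called, at 5.36 and 5.69 in PGC11.5, against 4.67 to 5.42 in ESC, near the detection limit. The epithelial factor Elf3 fell 5.62-fold, to 6.17 and 6.29 in PGC11.5, against 8.59 to 8.79 in ESC.

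Several genes that mark the arrival of germ cells in the gonad were among the 10 rises of their list. Ddx4 (mouse vasa homologue), an RNA helicase of germ granules, had 7.37 and 7.88 in PGC11.5, against 4.92, 4.84, 4.86 and 4.76 in ESC. No ESC array detected this probe, and its rise was at least 5.57-fold, whereas under median scaling its difference was 0.95 and was not called. A second Ddx4 probe was detected on all 4 ESC arrays and 1 PGC11.5 array, and it differed by -0.13 (SE 0.228), which was not called. Mov10l1, a helicase that feeds piRNA precursors to Piwi proteins, had 8.31 and 8.13 in PGC11.5, against 4.65, 4.82, 4.54 and 4.61 in ESC. The X-linked testis gene Tex13b had 8.47 and 8.54 in PGC11.5, against 4.24, 4.25, 4.36 and 4.30 in ESC. Neither was detected in ESC, for rises of at least 8.42-fold and at least 10.3-fold. Piwi protein Piwil2 rose 8.17-fold, the mitochondrial tudor protein Tdrkh 8.82-fold and its partner at the mitochondrial surface, Asz1, 26-fold. Asz1 had 9.92 and 9.46 in PGC11.5, against 4.72, 4.61, 5.09 and 5.55 in ESC, with 1 ESC array above the detection limit. Prmt5, which methylates Piwi proteins, was the fall of the piRNA list at 1.73-fold, but its other 2 detected probes were higher in PGC11.5, by 1.29 and 0.61. The testis-specific TFIID subunit Taf7l fell on the quantile-normalized scale, with 4.34 and 4.46 in PGC11.5, against 5.49 to 6.82 in ESC, and turned to 0.22 under median scaling. The DEAD-box gene D1Pas1, a testis paralogue of Ddx3x, fell at least 2.70-fold.

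Among meiosis genes, cohesins and the break-forming enzyme rose, and the entry switch fell. The meiotic cohesin subunit Stag3 had 10.18 and 10.62 in PGC11.5, against 6.62, 6.61, 6.34 and 6.40 in ESC. Spo11, which makes the meiotic double-strand breaks, had 7.46 and 7.19 in PGC11.5, against 4.32, 4.37, 4.37 and 4.33 in ESC. The cohesin subunit Smc1b had 7.68 and 8.36 in PGC11.5, against 4.54, 4.79, 7.07 and 6.99 in ESC. The rises were 15-fold, at least 4.53-fold and 4.50-fold, and for Smc1b ESCm and ESCf lay apart, with detection in ESCf alone. Stra8, the retinoic acid target that starts meiosis, had 4.39 and 4.29 in PGC11.5, against 7.04, 7.60, 7.73 and 7.79 in ESC. It fell at least 3.21-fold, without detection in germ cells at this stage. The synaptonemal complex protein Syce2 fell 9.36-fold, to 4.83 and 6.0 in PGC11.5, against 8.54 to 8.72 in ESC. Sycp3, Hormad1, Mael, Tdrd1 and Tex101 have probes that were detected on too few arrays to be tested. On the X chromosome, Rhox6 rose 15.7-fold and Mageb4 12.1-fold beside Rhox9, and for Rhox6 and Rhox9 the ESCf arrays were above the ESCm arrays but below PGC11.5.

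The promoter windows of 5 of these genes are shown because methylated, CpG-rich promoters are a known site of control of the germline programme, and because E2F6 and MGA, which bind GCGGGA-type sites and the E-box CACGTG, are known repressors of germline genes in ESC. Each runs from 250 bases before to 50 after the RefSeq start (GRCm38.p6), 5′ to 3′ on the gene's strand, with CACGTG and GCGGGA (on either strand, as TCCCGC) in capitals.
Dazl (chr17:50293571-50293870, minus strand): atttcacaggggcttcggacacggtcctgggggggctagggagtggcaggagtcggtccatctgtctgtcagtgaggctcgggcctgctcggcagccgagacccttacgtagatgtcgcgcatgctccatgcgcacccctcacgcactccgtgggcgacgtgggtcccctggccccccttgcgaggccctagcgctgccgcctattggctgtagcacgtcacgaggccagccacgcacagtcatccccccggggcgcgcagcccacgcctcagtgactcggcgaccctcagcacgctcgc
Asz1 (chr6:18109012-18109311, minus strand): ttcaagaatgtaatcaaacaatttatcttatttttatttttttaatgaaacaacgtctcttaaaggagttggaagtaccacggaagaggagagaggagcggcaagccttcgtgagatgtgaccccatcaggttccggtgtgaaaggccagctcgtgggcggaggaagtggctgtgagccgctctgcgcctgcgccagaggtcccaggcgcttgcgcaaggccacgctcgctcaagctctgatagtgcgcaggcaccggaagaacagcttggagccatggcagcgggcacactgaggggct
Ddx4 (chr13:112652261-112652560, minus strand): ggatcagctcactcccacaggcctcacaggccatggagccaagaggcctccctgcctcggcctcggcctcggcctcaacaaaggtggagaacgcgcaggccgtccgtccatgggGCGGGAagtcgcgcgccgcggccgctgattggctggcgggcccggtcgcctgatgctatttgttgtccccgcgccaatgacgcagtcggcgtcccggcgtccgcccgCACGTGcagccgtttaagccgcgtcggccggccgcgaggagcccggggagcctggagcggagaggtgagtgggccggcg
Mov10l1 (chr15:88982744-88983043, plus strand): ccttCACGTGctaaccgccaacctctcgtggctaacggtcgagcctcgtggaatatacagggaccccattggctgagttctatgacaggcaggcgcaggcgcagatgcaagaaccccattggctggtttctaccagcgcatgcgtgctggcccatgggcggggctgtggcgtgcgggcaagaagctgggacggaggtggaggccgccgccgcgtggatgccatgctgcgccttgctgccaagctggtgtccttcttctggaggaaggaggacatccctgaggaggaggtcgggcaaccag
Stag3 (chr5:138280259-138280558, plus strand): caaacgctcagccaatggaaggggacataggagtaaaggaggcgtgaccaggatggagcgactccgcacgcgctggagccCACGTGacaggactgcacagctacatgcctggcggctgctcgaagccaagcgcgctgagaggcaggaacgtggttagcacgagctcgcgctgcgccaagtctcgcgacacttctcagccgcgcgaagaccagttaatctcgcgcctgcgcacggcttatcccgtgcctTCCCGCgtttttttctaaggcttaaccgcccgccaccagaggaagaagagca

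The CpG count of the windows was 28 for Dazl, 17 for Asz1, 38 for Ddx4, 20 for Mov10l1 and 30 for Stag3, beside a median of 7 over all 32851 windows and 20 over the 9456 windows of genes tested. CACGTG, which reads the same on both strands, was found in the windows of Ddx4, Mov10l1 and Stag3, and GCGGGA in those of Ddx4 and Stag3, with no overlap between the motifs. Of the 27 windows that RefSeq gives for 19 of the 26 germline genes that rose, 4 (14.8%) held CACGTG and 9 (33.3%) held GCGGGA, beside 9.89% and 34.8% of the windows of all genes tested and 7.15% and 20% of all windows. The median CpG count of these 27 windows was 18, beside 20 for genes tested and 22 for all genes that rose. Of the windows shown, all but that of Asz1 lay above this median, so they do not represent the germline genes that rose. The 4 windows with CACGTG belong to Ddx4, Mov10l1, Stag3 and Taf9b. Elavl2 gives several of the 27 windows, some of them overlapping and each counted for GCGGGA, so these are shares of windows and not of genes. E2f6 itself rose 1.93-fold, with 9.41 and 9.26 in PGC11.5, against 8.26 to 8.51 in ESC. Against EpiSC it was called lower, with a difference of -0.79, at 10.39 in EpiT9 and 9.86 in EpiE3.

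**Figure D3:**
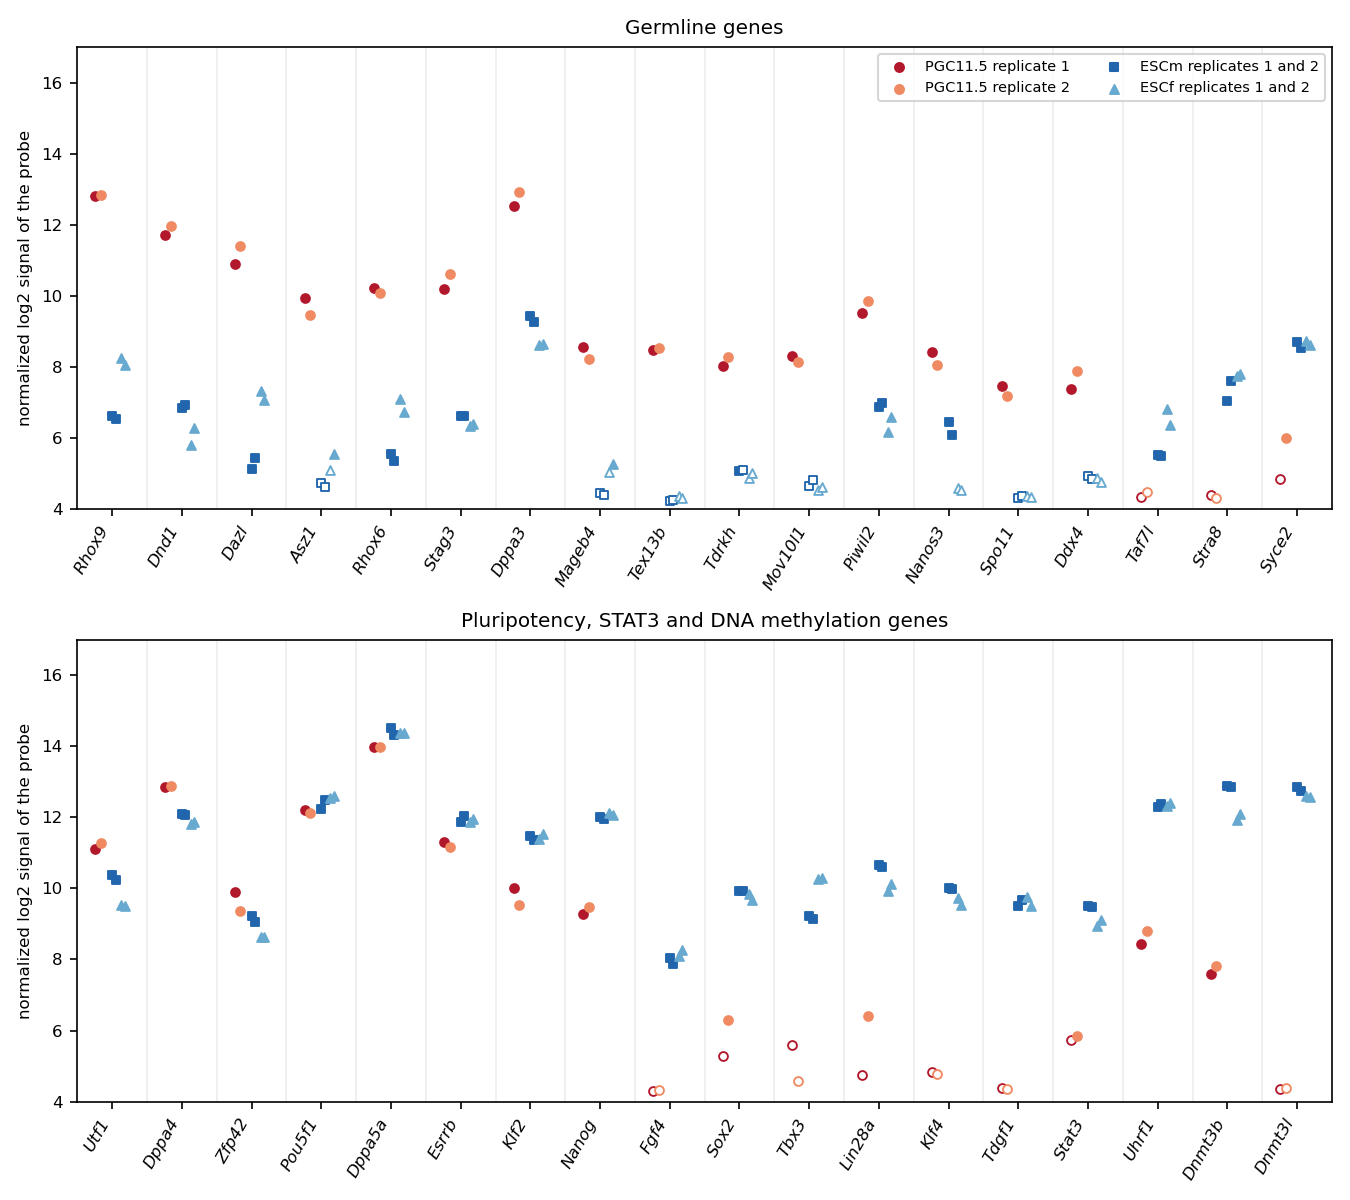
Normalized log2 signal of each gene's probe on the PGC11.5 arrays (circles, left) and the ESCm (squares) and ESCf (triangles) arrays, with open symbols where the probe was not detected. Most germline genes lie higher in PGC11.5, whereas Taf7l, Stra8 and Syce2 and most genes of the lower panel lie lower, and Utf1, Dppa4 and Zfp42 lie higher.

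Of 15 measured core pluripotency genes, 11 fell and 2 rose, beside 27.2% and 27.0% of all genes, with a median difference of -1.46. For 3 of the called genes another detected probe was called the opposite way. Blocked on line, 8 fell and 1 rose. The homeodomain factor Nanog had 9.29 and 9.49 in PGC11.5, against 12.02, 11.96, 12.13 and 12.07 in ESC, a 6.29-fold fall (log2 difference -2.65 ± 0.08, SE, adjusted p = 3.37e-09). The partner of Oct4, Sox2, had 5.29 and 6.30 in PGC11.5, against 9.92, 9.92, 9.86 and 9.66 in ESC. The blocker of let-7 maturation Lin28a had 4.74 and 6.40 in PGC11.5, against 10.67, 10.61, 9.93 and 10.12 in ESC. Both were detected on PGC11.5 replicate 2 and not on replicate 1, and the falls were 16.5-fold and 27.1-fold, with a Lin28a difference of -3.93 without replicate 1 and -5.59 without replicate 2. Other detected probes showed less: a second Sox2 probe, the brighter one over the 6 arrays, differed by 0.20 (SE 0.162), which was not called, and a second Lin28a probe by -0.90 (SE 0.146). The Nodal co-receptor Tdgf1 (Cripto) had 4.39 and 4.35 in PGC11.5, against 9.49, 9.69, 9.75 and 9.52 in ESC, a fall of at least 13.5-fold that its second probe, also not detected in PGC11.5, shared.

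Pou5f1 stayed bright on all arrays. It had 12.19 and 12.11 in PGC11.5, against 12.24, 12.48, 12.56 and 12.60 in ESC. The chosen probe gave a fall of 1.24-fold that was not called with a variance of its own for PGC11.5 (adjusted p = 0.319), and a second probe gave a rise of 0.71 (SE 0.093), so no direction is given for the gene. Sall4, a zinc finger partner of Oct4, also had probes in opposite directions, at -0.46 ± 0.07 and 1.74 (SE 0.150). The chromatin-associated Utf1 had 11.10 and 11.27 in PGC11.5, against 10.39, 10.25, 9.52 and 9.52 in ESC, a 2.40-fold rise. Dppa4 had 12.84 and 12.88 in PGC11.5, against 12.09, 12.08, 11.81 and 11.87 in ESC, a 1.87-fold rise, with 1 other probe called higher, by 0.38, and 1, not detected in PGC11.5, called lower. Dppa5a, an RNA-binding protein of pluripotent cells, had 13.97 and 13.98 in PGC11.5, against 14.51, 14.31, 14.38 and 14.37 in ESC, a 1.34-fold fall that turned to 0.33 under median scaling. Blocking on line gave an adjusted p of 0.102 for Utf1 and 0.381 for Dppa5a.

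Naive pluripotency genes, those kept by LIF-dependent ESC, fell in 11 of 19 cases and rose in 3, with a median of -0.96. The reprogramming factor Klf4 had 4.82 and 4.77 in PGC11.5, against 10.0, 9.99, 9.72 and 9.55 in ESC. Tbx3, a target of PI3K signalling in ESC, had 5.61 and 4.59 in PGC11.5, against 9.22, 9.13, 10.26 and 10.30 in ESC. The autocrine growth factor Fgf4 had 4.31 and 4.33 in PGC11.5, against 8.04, 7.87, 8.10 and 8.26 in ESC. None of the 3 was detected in PGC11.5, and the falls were at least 15.6-fold, at least 14.7-fold and at least 4.63-fold. Klf2 fell 3.18-fold and the nuclear receptor Esrrb 1.61-fold, and both were detected on every array. Zfp42 (Rex1) had 9.91 and 9.37 in PGC11.5, against 9.23, 9.07, 8.64 and 8.63 in ESC, a rise of 1.68-fold whose adjusted p was 0.105 under a random block for line. Pecam1, an adhesion molecule of germ cells, ESC and endothelium alike, rose 2.50-fold, with 8.30 and 7.83 in PGC11.5, against 6.55 to 7.11 in ESC.

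Genes of the primed epiblast gave no rise and 6 falls of 17, with a median of -0.97. Under median scaling that median was 0.24, beside 0.73 for all genes, and 5 of the 17 fell while none rose. The de novo methyltransferase Dnmt3b fell 26.7-fold, to 7.58 and 7.81 in PGC11.5, against 11.91 to 12.88 in ESC. The Nodal antagonist Lefty1 fell 3.26-fold, the keratin Krt8 5.04-fold and the claudin Cldn6 5.77-fold.

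The choice of pluripotent cell altered these counts. Against EpiSC, 2037 genes (22.5%) were higher in PGC11.5 on both arrays and 2634 (29.1%) lower, by the same rule. This comparison shares the PGC11.5 arrays with the one against ESC. Of the 2447 genes that rose against ESC, 1542 were also called higher than in EpiSC, and of the 2459 that fell, 1307 were also called lower. Genes changed against ESC but not called against EpiSC included Pcna (log2 difference from EpiSC -0.06), Eed (-0.23), Atp5a1 (-0.38), Syce2 (0.18), Gmnn (0.07), Xrcc1 (-0.165) and Mycl (0.045). Of the 19 naive genes, 9 were higher and 2 lower in PGC11.5 than in EpiSC, beside 3 and 11 against ESC. Of the 17 primed genes, 15 were lower in PGC11.5 than in EpiSC, beside 6 against ESC, and none was higher in either comparison. Esrrb was 5.74 higher on the log2 scale in PGC11.5 than in EpiSC, where it had 5.78 in EpiT9 and 5.20 in EpiE3, and the difference between EpiSC and ESC was itself called, at -6.43 (adjusted p = 3.42e-12). Dppa3, Dppa5a and Dppa4 were 7.58, 5.02 and 6.75 higher in PGC11.5 than in EpiSC. Nanog was lower in PGC11.5 than in either cell, with a difference of -0.73 from EpiSC. Tdgf1 was also called lower than in EpiSC, without detection in PGC11.5. Dnmt3b differed by -5.41 from EpiSC and Krt8 by -4.59.

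**Figure D4:**
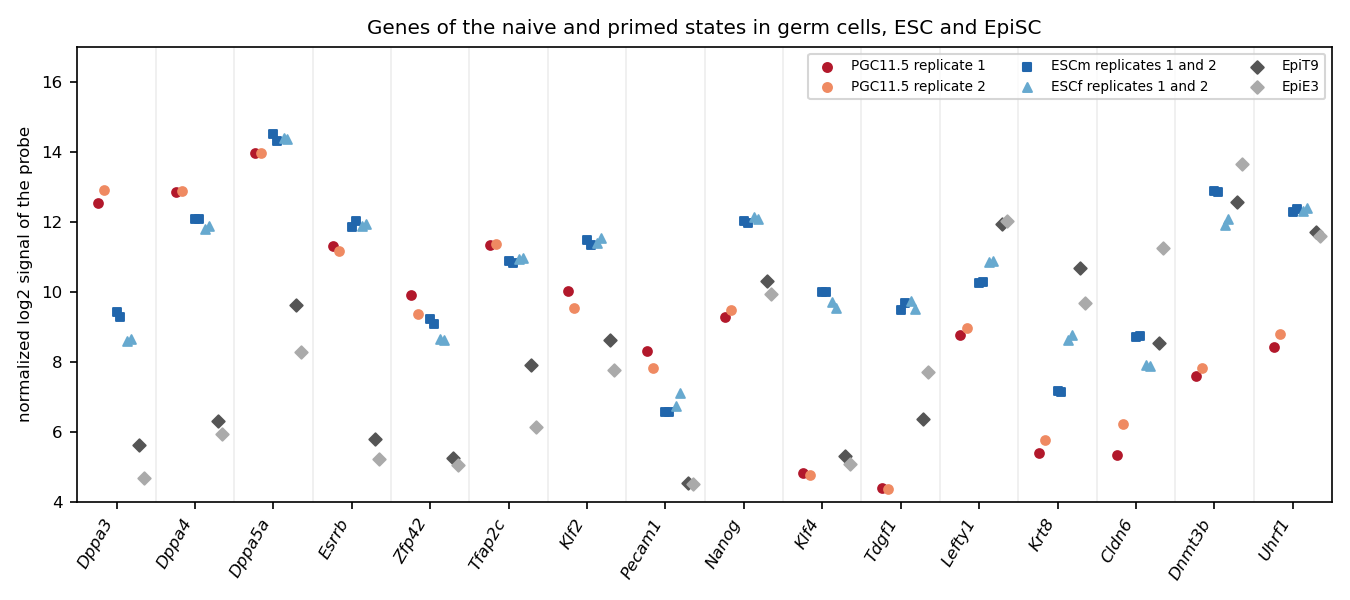
Normalized log2 signal on the PGC11.5 arrays (circles, left), the ESCm and ESCf arrays (squares and triangles) and the EpiT9 and EpiE3 arrays (diamonds, right). From Dppa3 to Tfap2c and for Pecam1 the PGC11.5 values lie nearer to ESC than to EpiSC or above both, Klf2 lies between them, and Nanog, Klf4, Tdgf1, Lefty1, Krt8, Cldn6, Dnmt3b and Uhrf1 lie below ESC and EpiSC. Detection is not marked here.

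LIF pathway genes fell in 8 of 16 cases and rose in 1, with a median of -1.0. Under median scaling that median was 0.14, beside 0.73 for all genes, and 4 fell. The transducer Stat3 had 5.74 and 5.86 in PGC11.5, against 9.51, 9.49, 8.95 and 9.10 in ESC, an 11-fold fall that its second probe detected on all 6 arrays shared, at -2.02. Its feedback inhibitor Socs3 fell 14.8-fold, to 6.54 and 4.78 in PGC11.5, against 9.09 to 10.03 in ESC, or -4.77 without replicate 1 and -3.01 without replicate 2 on the log2 scale. The NF-kappaB cofactor Bcl3 fell at least 1.65-fold and the Myc family gene Mycl rose 4.05-fold.

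BMP pathway genes and targets rose in 9 of 16 cases and fell in 4, with a median of 1.07. The ligand Bmp7 had 7.18 and 7.23 in PGC11.5, against 4.77, 5.08, 4.93 and 4.75 in ESC. The homeobox target Msx1 had 7.64 and 8.20 in PGC11.5, against 4.65, 4.61, 4.85 and 4.97 in ESC. The zinc finger target Gata2 had 9.06 and 9.48 in PGC11.5, against 6.46, 6.63, 6.88 and 7.07 in ESC. The rises were at least 4.17-fold, at least 6.84-fold and 5.69-fold, and Msx2 rose at least 2.83-fold. Id2, an inhibitor of bHLH factors and a common BMP target, had 4.60 and 5.56 in PGC11.5, against 8.07, 7.91, 8.84 and 9.0 in ESC, a fall of at least 6.06-fold. The mediator Smad1 fell 1.83-fold, with an adjusted p of 0.057 under a random block for line, and the receptor Bmpr1a had probes in opposite directions, at -1.49 ± 0.19 and 1.29 (SE 0.209). Among 14 genes of FGF signalling and its feedback, 4 rose, near the 27.0% of all genes, and 2 fell, below the 27.2% of all genes. The arrays differed, with list medians of 0.32 on replicate 1 and -0.29 on replicate 2. The phosphatase Dusp4 rose 5.30-fold, with its other 2 probes at 1.70 and 1.71, and the transcription factor Etv5 rose 2.12-fold. Among 16 Wnt genes, 7 rose and 3 fell. Axin2, the standard readout of canonical Wnt signalling, rose 4.22-fold, with 8.56 and 8.98 in PGC11.5, against 6.19 to 7.22 in ESC, while beta-catenin, Ctnnb1, fell 2.40-fold. The non-canonical ligand Wnt5a rose at least 2.32-fold and the caudal factor Cdx2 3.90-fold, whereas Cdx1 fell 6.75-fold, or -2.07 without replicate 1 and -3.44 without replicate 2.

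Of 12 genes of KIT, chemokine signalling and migration, 4 rose and 4 fell, shares near those of all genes, and 2 rose and 3 fell blocked on line. The rises were Wnt5a, Ror2, Cxcl12 and E2f1, and E2f1 is also counted in the list of G1 cyclins and CDK inhibitors. Ror2 had 7.39 and 6.68 in PGC11.5, against 6.26 to 6.62 in ESC. Its difference from the ESC mean was 0.94 on replicate 1 and 0.23 on replicate 2. Ror2 was not called with a variance of its own for PGC11.5 (adjusted p = 0.106) or under a random block for line (adjusted p = 0.224). E-cadherin, Cdh1, had 6.38 and 7.77 in PGC11.5, against 10.74, 10.72, 10.31 and 10.44 in ESC, an 11.1-fold fall, or -2.78 without replicate 1 and -4.17 without replicate 2. The laminin receptor subunit Itga6 fell at least 2.25-fold. The gap junction protein Gja1 (connexin 43) fell 25.6-fold, to 8.0 and 6.40 in PGC11.5, against 11.32 to 12.48 in ESC, or -5.48 without replicate 1 and -3.88 without replicate 2. The chemokine Cxcl12, a guide of PGC migration that surrounding tissue makes, had 8.99 and 6.67 in PGC11.5, against 6.53, 6.57, 5.64 and 5.54 in ESC. Its rise of 3.38-fold came with 0.60 without replicate 1 and 2.92 without replicate 2, and it was not called under a random block for line (adjusted p = 0.151). Cxcr4, the receptor of this chemokine, was not called, at 6.05 and 7.80 in PGC11.5 with detection on replicate 2, and it was not detected in ESC.

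The DNA methylation machinery changed in both directions. Of 20 genes of DNA methylation and demethylation, 12 rose and 5 fell, with a median of 0.46. Beside the falls of Dnmt3l and Dnmt3b, Uhrf1, which brings the maintenance methyltransferase to replicated DNA, had 8.42 and 8.79 in PGC11.5, against 12.29, 12.38, 12.32 and 12.40 in ESC. Its fall was 13.4-fold (log2 difference -3.74 ± 0.10, SE, adjusted p = 1.38e-09), and a second probe detected in ESC alone was also called lower. The maintenance methyltransferase Dnmt1 itself had 9.57 and 9.86 in PGC11.5, against 9.76, 9.93, 9.73 and 9.78 in ESC, and it was not called (log2 difference -0.09 ± 0.09, SE, adjusted p = 0.386). The paralogue Uhrf2 had 11.20 and 11.15 in PGC11.5, against 9.02, 9.03, 9.21 and 9.25 in ESC, a 4.13-fold rise, with its other 3 probes also higher, by 0.73 to 3.13. Among members of the list that act in base excision repair, the scaffold Xrcc1 rose 2.90-fold and the glycosylase Mbd4 2.90-fold, while the endonuclease Apex1 fell 4.90-fold, to 8.95 and 8.85 in PGC11.5, against 10.63 to 11.65 in ESC. Tet1 and Tet2, which oxidize methylcytosine, have no probe listed, and Dnmt3a was not tested.

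Of 38 histone-modifying enzymes, 19 fell and 8 rose. Eed, a core subunit of Polycomb repressive complex 2, had 7.57 and 8.09 in PGC11.5, against 11.78, 11.68, 11.18 and 11.15 in ESC, a 12.2-fold fall. Eed had 7.90 in EpiT9 and 8.22 in EpiE3, and it was not called against EpiSC. The demethylases Kdm4c and Kdm6b fell at least 6.19-fold and at least 3.74-fold, and the deacetylase Hdac6 at least 4.80-fold, all without detection in PGC11.5. Rises were smaller, with the chromatin assembly subunit Chaf1a at 2.93-fold, the arginine methyltransferase Carm1 at 2.35-fold and the deacetylase Hdac1 at 2.19-fold. Under a random block for line, 11 fell and 6 rose.

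Imprinted genes, whose parental marks are erased in germ cells around this stage, gave 7 rises and 9 falls of 23, beside 27.0% and 27.2% of all genes, with a median of 0.04. The growth factor Igf2 had 13.07 and 9.98 in PGC11.5, against 9.67, 9.55, 9.85 and 9.95 in ESC. The CDK inhibitor Cdkn1c had 11.86 and 9.85 in PGC11.5, against 9.28, 9.36, 8.24 and 8.65 in ESC. The Notch-like ligand Dlk1 had 9.35 and 7.0 in PGC11.5, against 5.47, 5.29, 6.69 and 6.53 in ESC. All 3 were called, yet most of the rise lay on replicate 1: without it the differences were 0.22, 0.97 and 1.0, against 3.31, 2.97 and 3.36 without replicate 2. Under a random block for line, 3 imprinted genes rose, and the adjusted p was 0.298 for Igf2, 0.0784 for Cdkn1c and 0.0824 for Dlk1. The transporter Slc22a18 had 6.89 and 7.53 in PGC11.5, against 4.63, 4.33, 4.52 and 4.54 in ESC, a rise of at least 4.18-fold close on both arrays. The hydrolase gene Mest fell 5.46-fold, or -3.05 without replicate 1 and -1.85 without replicate 2, and the translational regulator Impact fell 5.81-fold.

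Cell cycle genes moved in both directions. Of 26 mitosis genes 13 rose and 5 fell, of 32 replication genes 14 and 10, and of 18 G1 cyclins and CDK inhibitors 3 and 6, the last with 5 higher when either PGC11.5 array was left out. Separase, Espl1, had 9.76 and 9.94 in PGC11.5, against 7.65, 7.87, 7.65 and 7.25 in ESC, a 4.74-fold rise. The phosphatase Cdc25a rose 2.59-fold, the checkpoint protein Bub3 2.58-fold and the S-phase factor E2f2 4.24-fold. The helicase subunit Mcm7 had 10.41 and 10.13 in PGC11.5, against 8.53, 8.46, 8.63 and 8.77 in ESC, a 3.19-fold rise, and Mcm3 rose 2.60-fold. The sliding clamp Pcna had 6.07 and 6.22 in PGC11.5, against 9.86, 9.97, 9.76 and 10.06 in ESC, a 13.6-fold fall. Among the PGC11.5 arrays only replicate 2 detected Pcna. The licensing inhibitor Gmnn fell at least 2.75-fold. Neither was called against EpiSC, with Pcna at 6.18 in EpiT9 and 6.24 in EpiE3. Mcm6 had probes in both directions, with 2 called lower, 1 of them not detected in PGC11.5, and 2 called higher, by 0.92 and 0.59. Cyclin D1, Ccnd1, fell 5.73-fold, with 8.53 and 7.36 in PGC11.5, against 10.18 to 10.70 in ESC, or -3.11 without replicate 1 and -1.93 without replicate 2, and its other 2 probes also fell. Cyclin E1, Ccne1, fell 2.66-fold.

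Of 19 genes of cell death and the p53 response, 8 fell and 5 rose. The survival protein Mcl1 had 7.40 and 8.42 in PGC11.5, against 11.52, 11.38, 11.38 and 11.29 in ESC, an 11.2-fold fall. The p53 targets Ccng1 and Pmaip1 (Noxa) fell 6.90-fold and at least 1.92-fold (for Pmaip1 adjusted p = 0.0744 under a random block for line), whereas Mdm2, the ubiquitin ligase of p53, rose 2.02-fold, with 11.05 and 11.08 in PGC11.5, against 9.90 to 10.21 in ESC. Under a random block for line, 6 fell and 1 rose.

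Glycolysis genes fell in 13 of 21 cases and rose in 2, with a median of -0.97. Lactate dehydrogenase, Ldha, had 10.05 and 9.39 in PGC11.5, against 13.37, 13.28, 12.86 and 12.98 in ESC. The glucose transporter Slc2a1 had 9.16 and 9.0 in PGC11.5, against 11.61, 11.52, 11.58 and 11.72 in ESC. The second transporter, Slc2a3, had 10.21 and 9.82 in PGC11.5, against 12.60, 12.64, 12.59 and 12.58 in ESC. The falls were 10.6-fold, 5.75-fold and 6.01-fold. Triosephosphate isomerase, Tpi1, fell 7.18-fold, with a second probe at -4.11 and another, dim probe that differed by -0.03. The rises were small, at 1.75-fold for the phosphofructokinase subunit Pfkm and 2.02-fold for Pfkfb4. Against EpiSC, 17 glycolysis genes were lower and 2 higher in PGC11.5.

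HIF targets outside glycolysis, genes induced by low oxygen in many cells, fell in 13 of 29 cases and rose in 2. Both rises were lost under a variance of its own for PGC11.5 and under a random block for line. The median was -0.56 and turned to 0.14 under median scaling, beside 0.73 for all genes, and there 6 fell and 4 rose. The repressor Bhlhe40 had 4.35 and 4.43 in PGC11.5, against 9.98, 9.86, 9.36 and 9.37 in ESC. Ndrg1 had 4.32 and 4.45 in PGC11.5, against 7.50, 7.43, 7.88 and 7.74 in ESC. Heme oxygenase, Hmox1, had 4.37 and 5.25 in PGC11.5, against 8.51, 8.25, 8.80 and 8.69 in ESC. None was detected in PGC11.5, and the falls were at least 13.8-fold, at least 3.44-fold and at least 6.54-fold.

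Genes of oxidative phosphorylation were mixed, with 28 rises and 20 falls of 69 and a median of 0.15. The complex I subunit Ndufa6 had 12.32 and 12.53 in PGC11.5, against 10.64, 10.41, 11.02 and 10.95 in ESC, a 3.19-fold rise. Sdhc of complex II rose 2.18-fold and Cox6a1 of complex IV 2.24-fold, with a second Cox6a1 probe at 1.09. The ATP synthase subunit Atp5a1 had 7.94 and 8.23 in PGC11.5, against 11.96, 11.73, 11.67 and 11.88 in ESC, a 13.2-fold fall. Atp5a1 had 8.21 in EpiT9 and 8.73 in EpiE3, and it was not called against EpiSC. Cox7b of complex IV fell 10.1-fold. Blocked on line, 15 rose and 18 fell. Cholesterol synthesis genes rose in 7 of 17 cases and fell in 4, among them the squalene epoxidase Sqle, up 2.64-fold with 11.23 and 10.99 in PGC11.5, against 9.42 to 9.87 in ESC, and the isomerase Ebp, down 3.56-fold. Blocking on line left 4 cholesterol rises, and 1 gene was higher and 9 were lower in PGC11.5 than in EpiSC.

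Heat-shock and chaperone genes fell in 15 of 21 cases and rose in 3, with a median of -1.61. Hspb1 had 5.74 and 5.62 in PGC11.5, against 11.38, 11.32, 12.01 and 11.93 in ESC. The J-domain protein Dnajb6 had 6.53 and 7.07 in PGC11.5, against 9.79, 10.01, 10.63 and 10.85 in ESC. The chaperonin subunit Cct5 had 5.60 and 6.0 in PGC11.5, against 9.32, 9.44, 9.33 and 9.42 in ESC. The falls were at least 56-fold, 11.4-fold and 11.9-fold, although a second Dnajb6 probe differed by 0.02 (SE 0.190). The rises were Dnajb1 at 3.25-fold, the cochaperone Bag3 at 2.61-fold and the testis-rich Hspa2 at 2.03-fold, the last with an adjusted p of 0.0635 under a random block for line. Against EpiSC, 6 of the 21 were lower and 2 higher in PGC11.5.

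Immediate-early genes, which respond within minutes to handling and dissociation, rose in 1 of 17 cases and fell in 5, but without PGC11.5 replicate 2 the rises numbered 7, and the medians were 0.41 on replicate 1 and -0.53 on replicate 2. Cytosolic ribosomal protein genes fell in 22 of 54 cases and rose in 10, against 18 and 21 under median scaling. Blocked on line, 14 fell and 6 rose. Rplp1 rose 1.61-fold, with both PGC11.5 arrays at the same value near the top of the quantile scale, and its difference of 0.68 became 2.19 under median scaling. The probe of Rps9 had 11.02 and 11.02 in PGC11.5, against 13.64, 13.69, 13.62 and 13.65 in ESC, a 6.20-fold fall that a second probe of the gene, at 0.08 (SE 0.083), did not share.

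Genes of the 2-cell-like state, a rare state within ESC cultures, fell in 3 of 9 cases and rose in 1. Zscan4c had 4.41 and 4.62 in PGC11.5, against 7.59, 7.69, 10.38 and 10.04 in ESC. It was not detected in PGC11.5, the fall from the ESC mean was at least 8.40-fold, and the ESCf arrays lay above the ESCm arrays. Over all genes, 1747 differed between ESCf and ESCm by adjusted p.

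**Figure D5:**
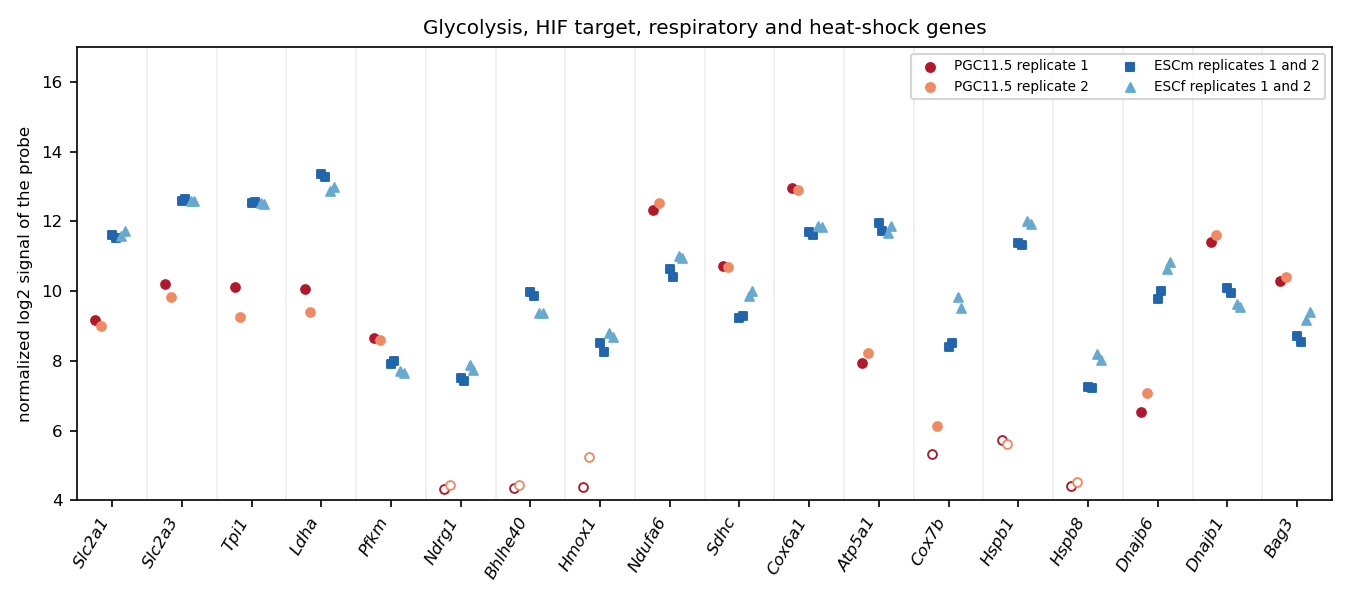
Normalized log2 signal of metabolic and chaperone genes on the PGC11.5 arrays (circles, left) and the ESCm (squares) and ESCf (triangles) arrays, with open symbols where the probe was not detected. Glucose transporter, lactate dehydrogenase, HIF target and small heat-shock genes lie lower in PGC11.5, and Ndufa6, Sdhc, Cox6a1, Dnajb1 and Bag3 lie higher.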

How the data were processed

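Per the file headers, the deposited table used here holds an unlogged intensity, the signal of each probe, and a detection p-value for each of 25697 probes on 14 arrays. The authors' second deposited table holds normalized values on a log2 scale and served as an alternative. Its exact scale is not given, and its values had a rank correlation of 1 with the signals. The submitters' processing notes name BeadStudio 3.2, RMA and lumi, whose order and settings are not given in those notes. Per the labels' protocols total RNA was amplified and biotin-labelled.

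Signals of all 14 arrays were background-corrected with the detection p-values, offset by 16, quantile-normalized and log2-transformed (neqc, limma 3.58.1, R 4.3.3). Genes came from GEO's platform annotation, which gave 1 gene for 23978 probes, several for 0 and no gene for 1719, or 16593 genes in all. Each gene is represented by the probe that is brightest on average over the 14 arrays, and 9054 genes detected (p under 0.01) on at least 2 arrays were tested. One limma model with 8 group means (6 residual and 9.76 total degrees of freedom, variance trend) gave every contrast, with Benjamini-Hochberg adjustment over the 9054 genes. "At least" folds set the bright group's mean against, per array, the higher of the lowest detected signal and the probe's own value. SE is the moderated standard error.

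The comparison, the gene lists and the alternatives were chosen with earlier results of these data known, so that list counts are descriptions. Named genes were the 12 largest rises and falls called on both arrays, the 4 largest in each direction of each list, all markers and a fixed set, leaving out unnamed clones, predicted genes and genes with an opposite probe among the 12, and the text names part of them. Eif2s3y and Xist were named as a check. Tried instead were the authors' deposited values, uncorrected background, median scaling, normalization or fit of the 6 arrays alone, other filters and probe choices, a variance of its own for PGC11.5, the line as a random block, a replicate block, a minimum of 2-fold and each array left out. The fit was tested on simulated data. Python 3.11.15, pandas 2.3.3, numpy 2.4.6 and matplotlib 3.10.9 made tables and figures, and promoters are RefSeq's (GRCm38.p6).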

Additional observations from a re-analysis of the deposited data

Results flagged for a closer look

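The difference of PGC11.5 from ESC depended on the ESC line for 51 of the 164 genes named here. For these, ESCf and ESCm themselves differed by the limma test of that contrast (adjusted p under 0.05). Over all 9054 genes tested, 1747 differed by the same test. The values are ESCf minus ESCm on the log2 scale, and the same difference lies between PGC11.5 against ESCm and PGC11.5 against ESCf. Causes were not tested. Among germline genes, ESCf was higher for Smc1b by 2.37, Dazl by 1.91, Rhox9 by 1.58, Rhox6 by 1.47, Taf7l by 1.09, Mageb4 by 0.75 and Prdm14 by 0.62. Nanos3, Dnd1, Dppa3 and Piwil2 differed by -1.69, -0.85, -0.72 and -0.56. Nanos3 was not detected in ESCf, and Smc1b, Mageb4 and Prdm14 were not detected in ESCm, so that their values are measured differences from a signal not above background. Dazl was 5.86 above ESCm and 3.95 above ESCf in PGC11.5. Among pluripotency and primed genes, Tbx3, Krt8, Jam2 and Lefty1 differed by 1.1, 1.55, 1.0 and 0.6, and Utf1, Dnmt3b, Cldn6 and Dppa4 by -0.8, -0.86, -0.84 and -0.24. Zscan4c was 2.56 higher in ESCf.

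Among signalling genes, Id2, Mycl, Dusp4, Axin2, Smad1, Stat3 and Hey1 differed by 0.93, 0.57, -2.16, -0.7, -0.58, -0.47 and -0.78. Dusp4 was 1.33 above ESCm and 3.48 above ESCf in PGC11.5. Among chromatin, repair, imprinted and cell cycle genes, Hdac6, Impact, Pmaip1, Eed, Xrcc1, Apex1, Ccne1 and Cdc25a differed by 0.97, 0.98, 0.97, -0.57, -0.63, -0.8, -0.76 and -0.75. Among metabolic genes, Ebp, Cox7b, Fabp3, Sdhc, Ndufa6, Ndrg1, Liph and Bhlhe40 differed by 1.58, 1.22, 0.88, 0.67, 0.46, 0.34, 0.37 and -0.56. The laminin chain Lamb1 differed by -0.86. Among stress and secreted proteins, Lgals3, Igfbp2, Dnajb6, Bag3, Hspb1, Atf4 and Dnajb1 differed by 1.45, 1.03, 0.84, 0.65, 0.62, 0.57 and -0.43.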

How the results depend on the processing

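Of the 148 named genes called on both arrays, 115 were called with the same sign under every alternative in which they were tested. The line as a random block cost the largest number of the named genes their call, 15. By adjusted p alone it left 1702 genes higher and 1773 lower in PGC11.5 than in ESC, and on both arrays 1625 higher. Median scaling gave 5344 higher and 1922 lower by adjusted p alone, and 1494 lower than in EpiSC on both arrays. A 2-fold minimum left 1491 higher and 1759 lower by adjusted p alone, and on both arrays 1351 higher than in ESC, with 976 higher and 1456 lower than in EpiSC. When each array was left out in turn, genes higher in PGC11.5 than in ESC numbered 2886 to 3400 by adjusted p alone and 2425 to 3046 on both arrays, and genes lower 2950 to 3595 and 2456 to 2909. Against EpiSC these ranges were 1996 to 2627 higher and 2579 to 3245 lower. The replicate numbers did not pair the samples, with correlations of same-numbered deviations of 0.011, 0.031 and -0.003, and with the replicate block 3040 genes were higher and 3116 lower by adjusted p alone, 2431 and 2453 on both arrays. Median scaling reversed Dppa5a to 0.33 and Taf7l to 0.22. The mean of a gene's probes reversed Pou5f1 (0.20), Sall4 (0.087), Ifitm1 (0.076), Prmt5 (0.37) and Dppa4 (-0.051). Normalization of the 6 arrays alone, with the brightest probe picked anew over them, reversed Sox2 (0.21), Ddx4 (-0.15), Dnajb6 (0.02) and Rps9 (0.091), and the brightest probe over the 6 arrays gave 0.20 for Sox2, 0.021 for Dnajb6 and 0.083 for Rps9. The causes were not tested. Detection limits the falls: where no PGC11.5 array detected a probe, its fold is a lower bound. Where 1 PGC11.5 array detected it, the fold is the measured one.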

Other observations

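Markers of primitive endoderm and trophectoderm, the extraembryonic lineages of the blastocyst, gave 2 rises and 5 falls of 17 measured genes, beside 27.0% and 27.2% of all genes. The laminin chain Lamb1 of basement membrane had 4.36 and 4.37 in PGC11.5, against 7.04, 7.06, 5.90 and 6.48 in ESC, and fell at least 1.70-fold, and the laminin chain Lama1 fell at least 2.15-fold. Neither was detected in PGC11.5, and none of the 5 falls was called under median scaling. The endoderm factors Gata6, Sox17 and Foxa2 were detected on neither PGC11.5 array. The collagens Col4a1 and Col4a2 stood apart between the PGC11.5 arrays, at 8.66 and 8.26 on replicate 1 and 5.67 and 5.18 on replicate 2, and neither was called. Without replicate 1 the falls numbered 8, and without replicate 2 the rises numbered 4. The order of Col4a1 and Col4a2 between the arrays is that of Col1a1 and Acta2, and its source was not tested.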
